A study of Saccharomyces cerevisiae with 8 samples.

Results

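Messenger RNA of the Mediator kinase gene SSN3, of its cyclin gene SSN8 and of transcription factor genes whose products are known or likely to be acted on by the kinase was followed in newly made RNA of budding yeast, Saccharomyces cerevisiae. The members were named by systematic name: SSN3 (YPL042C, also called SRB10), SSN8 (YNL025C), GCN4 (YEL009C), STE12 (YHR084W), TEC1 (YBR083W), MSN2 (YMR037C), MSN4 (YKL062W), GAL4 (YPL248C), PHD1 (YKL043W) and SIP4 (YJL089W). Of these 10 names, 8 were found among the 4928 counted features, and all 8 passed the filter on low counts. PHD1 and SIP4 are not analysed here.

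Mediator is the large complex that links DNA-bound transcription factors to RNA polymerase II. Its kinase module, made of the kinase Srb10 (Cdk8), its cyclin Srb11 (encoded by SSN8) and the scaffold proteins Srb8 and Srb9, binds the rest of Mediator reversibly, and Srb10 also phosphorylates transcription factors. In yeast, phosphorylation by Srb10 marks Gcn4 and Ste12 for destruction, is tied to nuclear export of Msn2, and accompanies activation by Gal4. These are events of proteins, whereas the measurements below are of RNA made from the genes.

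All libraries came from 1 strain of mating type alpha with the alleles ade2::hisG, his3Δ200, leu2Δ0, lys2Δ0, met15Δ0, trp1Δ63, ura3Δ0 and srb10Δ::KanMX, so the chromosomal SSN3 gene is replaced by a drug marker. Every group carries the plasmid pSH599, a centromeric plasmid with TRP1 and srb10as-1, the allele Y236G that lets the bulky ATP analogue 1-NA-PP1 block the kinase. Cultures in YPD-Trp were grown at 30 °C from an OD600 of 0.1 to 0.8 and received 6 µM of the inhibitor 1-NA-PP1 or the same volume of the solvent DMSO for 12 minutes. Heat shock at 37 °C for 12 minutes followed in 2 of the 4 groups, and the other groups are called steady state. RNA was labelled with 5 mM 4-thiouridine (4tU), a base analogue built into RNA as it is made, for 5 minutes, and 100 ng of RNA went into each library. Each group has 2 libraries, and since the labels do not say that they came from separate cultures, the p-values measure only the spread between these libraries, which may be technical. Heat shock libraries had also been with inhibitor or solvent for 12 minutes longer, which cannot be told apart from the temperature. No strain with an unmodified kinase is analysed here, so effects of 1-NA-PP1 that do not pass through Srb10 cannot be told apart from kinase inhibition.

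Total counts ran from 60372371 to 65134744 at steady state and from 14680275 to 17743527 at 37 °C, so depth moves with heat shock, and its part in the results was not tested. The members had 577 to 222035 counts per library. ADE2, LEU2, MET17 and URA3 had 0 counts in all 8 libraries, and all 4 are altered in the genotype (MET17 as met15Δ0). The alpha-specific genes MF(ALPHA)1, STE3 and SAG1 had 206 to 3082 CPM (counts scaled to a common library size with edgeR's TMM factors), and the a-specific genes reached at most 29.2 CPM, for STE2. The median absolute log2 difference between replicates over all features was 0.06 with DMSO and 0.13 with 1-NA-PP1 at steady state, and 0.13 with DMSO and 0.09 with 1-NA-PP1 under heat shock. For the members, inhibitor changes at steady state that moved most when a 1-NA-PP1 library was left out are given without each of the 2.

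The kinase allele sets the whole design, so the stretch of SSN3 around its altered residue is shown first, as in the reference genome sacCer3 (chrXVI:473976-474026, minus strand). The capitals mark codon 236, which encodes tyrosine in the reference and is the codon that the label Y236G names. The counts do not show which allele was read.
SSN3 codon 236: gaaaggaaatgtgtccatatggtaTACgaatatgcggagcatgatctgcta

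The counted SSN3 feature spans 472932 to 474951 of chromosome XVI on the minus strand, around a coding sequence of 1668 bases in 1 exon. It overlaps 37 bases of its neighbour MRX11 on the same strand, and MRX11 had 6.37 to 9.97 CPM where SSN3 had 2083 to 3431 CPM. The GCN4 feature shares 25 bases with YEL008C-A on the same strand. The GAL4 feature lies almost wholly opposite an annotated antisense gene, with 2832 bases in common. Since the sources used here do not say whether reads were counted by strand, GAL4 values are uncertain.

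SSN3 was the most abundant member of the set per unit length in every group, and GAL4 the least. Levels between genes are compared as RPKM, which is CPM per kilobase of the counted feature. With DMSO at steady state, SSN3 had 1208 ± 1.12 RPKM (SD, n = 2), above 99.4% of all features. The plasmid-borne kinase gene was thus 19.9 times as high as its chromosomal cyclin partner SSN8, which had 60.6 ± 0.135 RPKM and lay above 41.4% of features. A block of 4 factor genes followed SSN3: GCN4 at 245 ± 18.1, TEC1 at 243 ± 1.53, MSN2 at 235 ± 1.17 and STE12 at 219 ± 0.159 RPKM. Within it, the range of GCN4 (232 to 258) contained those of TEC1 and MSN2. The ranges of TEC1, MSN2 and STE12 did not overlap each other. MSN4 had 104 ± 9.75 RPKM, and GAL4, the activator of galactose genes, 11.9 ± 0.599 RPKM, above 7.67% of features.

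By group mean, the order between the top and the bottom changed with the conditions. With 1-NA-PP1 at steady state MSN2 (281 ± 9.47 RPKM) and TEC1 (275 ± 12.4) led the factors with overlapping ranges, and STE12 (214 ± 2.26) and GCN4 (199 ± 45.3) overlapped below them. Under heat shock with DMSO, MSN2 had 262 ± 17.6 RPKM, STE12 195 ± 19.6 and TEC1 194 ± 15.2 with overlap between the last pair, and GCN4 159 ± 19.7. Under heat shock with 1-NA-PP1, MSN2 reached 307 ± 2.74 RPKM, and GCN4 (181 ± 11.8) and MSN4 (181 ± 6.80) could not be separated. By group mean GCN4 ranked 2 among members with DMSO at steady state and 5 in each of the other groups. Single libraries did not all keep these places. In replicate 1 of DMSO at steady state GCN4 had 232 RPKM, below TEC1 (244) and MSN2 (236). In replicate 1 of 1-NA-PP1 at steady state it had 231 RPKM, above STE12 (215).

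**Figure D1:**
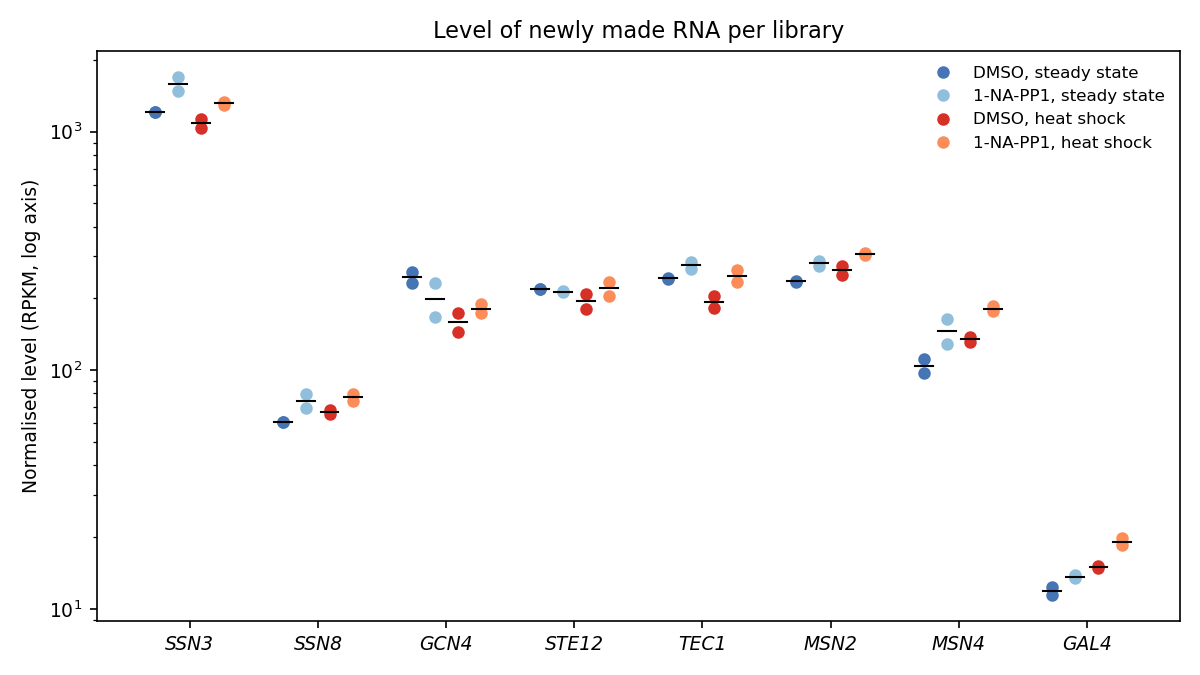
Level of each member per library, in RPKM on a log axis, for solvent (DMSO) and inhibitor (1-NA-PP1) in each temperature group (2 points per group, with the group mean as a line). SSN3 lies at 1032 RPKM or more in every library, 5 factor genes lie between about 97.2 and 309 RPKM, SSN8 between 60.5 and 79.7, and GAL4 below 20 RPKM.

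The first comparison asks what blocking the kinase does to these genes in growing cells. No member passed the test: 0 of 8 members had an adjusted p under 0.05 in edgeR's quasi-likelihood test with Benjamini-Hochberg adjustment over the 4901 features tested, where 0% of all features were called. At an unadjusted p under 0.05, 5 members and 1608 features passed, and DESeq2's test called 4 members (SSN3, SSN8, MSN2 and MSN4) and 986 features. The libraries of both treatments did not overlap for 8 of 8 members, 6 higher and 2 lower with 1-NA-PP1, where 72.7% of all features did not overlap, 44.7% higher and 28% lower. The median log2 change was 0.23 over the members and 0.05 over all features.

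Log2 changes here are relative to the bulk of features, as TMM scaling sets it. The authors' own library factors, which the deposited normalised counts imply, move the median of all features to -0.21 for the inhibitor at steady state, -0.62 for the inhibitor under heat shock, -0.32 for heat shock with DMSO and -0.66 for heat shock with 1-NA-PP1. Relative to that median the members keep close to the same values, for example 0.32 against 0.34 for SSN3 with the inhibitor at steady state. Where a direction turns under those factors, the value is given beside it.

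Under heat shock the inhibitor comparison again called 0 of 8 members, where 0.326% of features (16) were called. At an unadjusted p under 0.05, 6 members and 730 features passed, and DESeq2's test called TEC1, MSN2, MSN4 and GAL4 and 227 features in all. All 8 members had a positive log2 change after TMM scaling, where 50.1% of all features did, and a negative one with the authors' factors. The libraries did not overlap for 7 members, all higher with 1-NA-PP1 after TMM scaling, where 46% of all features did not overlap, 23.2% higher and 22.8% lower. The median log2 change was 0.26 over the members and 0.001 over all features.

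**Figure D2:**
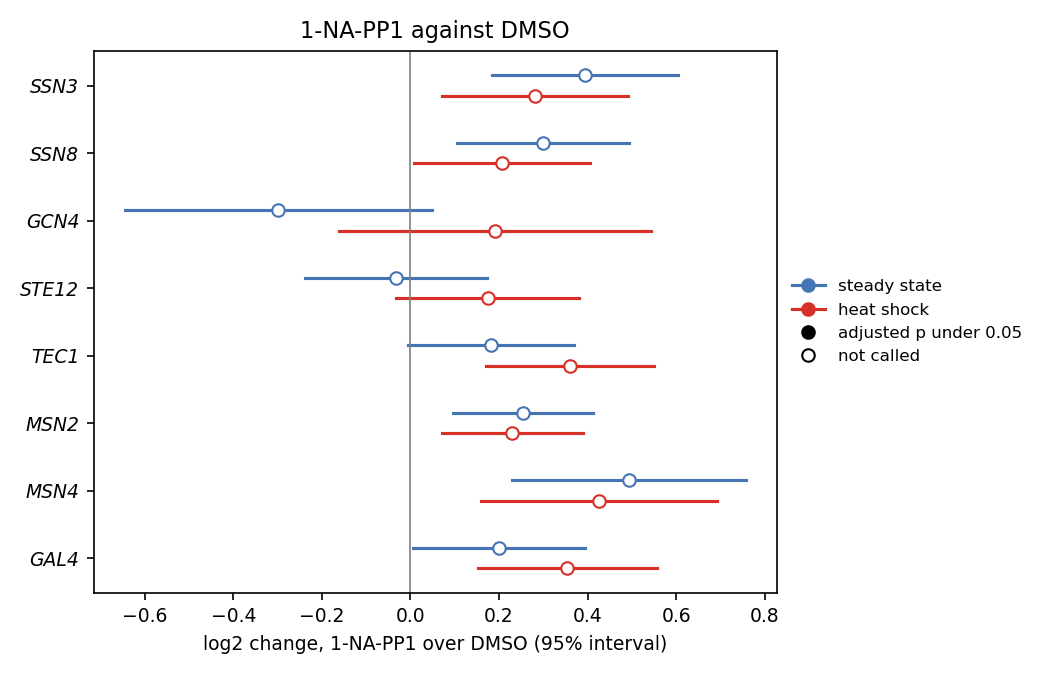
Log2 change of each member with 1-NA-PP1 relative to solvent, in growing and in heat-shocked cells, as points with 95% intervals of edgeR's quasi-likelihood fit after TMM scaling. No point passes the threshold, GCN4 and STE12 lie below 0 at steady state, and all 8 members lie above 0 under heat shock, where the authors' factors place all 8 below 0.

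The heat shock comparisons ask how the same genes behave at 37 °C with an active or a blocked kinase. With DMSO, 4 of 8 members were called, MSN4 and GAL4 higher and GCN4 and TEC1 lower, where 58.5% of all features were called, 29.6% higher and 28.9% lower. With 1-NA-PP1, 2 of 8 members were called, GAL4 higher and SSN3 lower, where 53.4% of features were called, 25.3% higher and 28.1% lower. The members' shares lie near or below these backgrounds. Libraries did not overlap for 8 members with DMSO, 4 higher and 4 lower, where 83.9% of features did not, 40.9% higher and 43% lower. With 1-NA-PP1 they did not overlap for 5 members, 3 higher and 2 lower, where 76.5% of features did not, 36.5% higher and 40% lower. With the authors' factors the calls were SSN3, GCN4 and TEC1, all lower, with DMSO, and none with 1-NA-PP1, where GAL4 turned to -0.14. The split of all called features moved as well, from 1450 higher and 1416 lower to 425 and 2050 with DMSO, and from 1241 and 1376 to 23 and 183 with 1-NA-PP1.

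In the authors' deposited table for heat shock with DMSO, 4 members had an adjusted p under 0.05, all lower: GCN4 at a log2 change of -0.92, TEC1 at -0.63, SSN3 at -0.47 and STE12 at -0.46, where 50.6% of features passed. In the authors' deposited table for heat shock with 1-NA-PP1, 0 members passed, where 19.1% of features did, and all 8 changes were negative, from -0.89 for SSN3 to -0.14 for GAL4. The median over all features in those tables was -0.32 and -0.66.

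**Figure D3:**
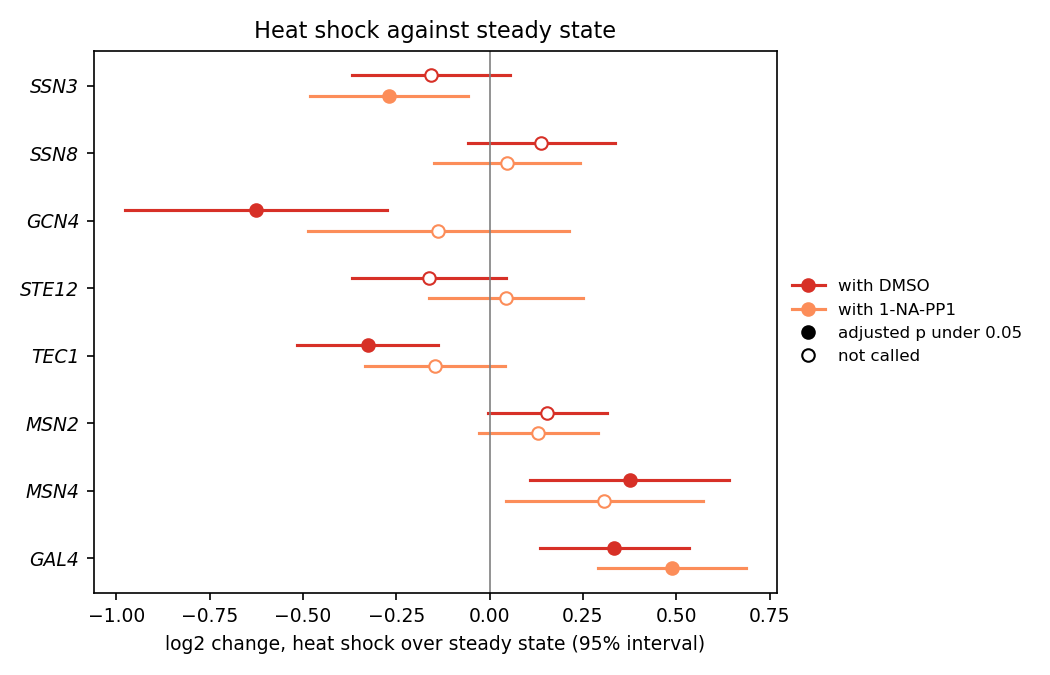
Log2 change of each member with heat shock, drawn separately for the solvent and the 1-NA-PP1 libraries, as points with 95% intervals of edgeR's quasi-likelihood fit after TMM scaling, filled where the adjusted p is under 0.05. GCN4 and TEC1 are lower and MSN4 and GAL4 higher with DMSO, and with 1-NA-PP1 SSN3 is lower and GAL4 higher. With the authors' factors SSN8 and MSN2 turn negative in both series, and STE12, MSN4 and GAL4 turn negative with 1-NA-PP1.

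The kinase gene SSN3 had 2439.6 and 2436 CPM with DMSO at steady state, 2976 and 3431 with 1-NA-PP1 at steady state, 2291 and 2083 with DMSO under heat shock, and 2623 and 2692 with 1-NA-PP1 under heat shock. Both inhibitor libraries were above both solvent libraries at each temperature, and the 1-NA-PP1 steady state libraries were the highest of all. The log2 change with the inhibitor was 0.39 at steady state (SE 0.0917, edgeR quasi-likelihood adjusted p = 0.0679). Without replicate 1 of 1-NA-PP1 at steady state it was 0.49 and passed the test (adjusted p = 0.00239), without replicate 2 it was 0.29 (adjusted p = 0.158), and with the authors' factors it was 0.11. Under heat shock it was 0.28 (SE 0.0918, edgeR quasi-likelihood adjusted p = 0.212) and -0.33 with the authors' factors. Heat shock lowered SSN3 with 1-NA-PP1, with a log2 change of -0.27 (SE 0.0917, edgeR quasi-likelihood adjusted p = 0.0364), while the change with DMSO was -0.16 (SE 0.0917, adjusted p = 0.172). The call with 1-NA-PP1 was lost without any 1 of replicates 1 and 2 of DMSO at steady state, replicate 2 of 1-NA-PP1 at steady state, and replicates 1 and 2 of 1-NA-PP1 under heat shock (-0.16 to -0.30), and with DESeq2's size factors in edgeR (adjusted p = 0.051), the authors' factors, the 2 groups alone and the replicate block. The difference between both heat shock changes was -0.11 (SE 0.130, adjusted p = 0.676).

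TRP1, a tryptophan synthesis gene and the marker of the plasmid that carries SSN3, had 71.2 and 69.9 CPM with solvent and 76.2 and 94.8 with inhibitor at steady state. At 37 °C it had 126 and 102 CPM with solvent and 123 and 145 with inhibitor. The heat shock libraries were all above the steady state ones. TRP1 rose with heat shock by 0.69 on the log2 scale with DMSO (SE 0.141, edgeR quasi-likelihood adjusted p = 0.00353) and by 0.65 with 1-NA-PP1 (SE 0.140, adjusted p = 0.0054), and the authors' factors leave 0.36 and 0.03. The plasmid carries both genes, and they did not move together with heat shock: the ratio of SSN3 to TRP1 in RPKM was 12.3 to 12.5 with solvent and 13.0 to 14.0 with inhibitor at steady state. It was 6.52 to 7.35 and 6.66 to 7.63 under heat shock. The labels do not say what trp1Δ63 leaves of the chromosomal TRP1 gene, so reads from it cannot be told apart.

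SSN8, the cyclin gene, stayed on its chromosome (XIV, 583623 to 585318, minus strand). It had 103 and 103 CPM with solvent and 118 and 135 with inhibitor at steady state, and 115 and 111 with solvent and 135 and 126 with inhibitor under heat shock. As for SSN3, both inhibitor libraries lay above both solvent libraries at each temperature. Its log2 change with the inhibitor was 0.30 at steady state (SE 0.0843, edgeR quasi-likelihood adjusted p = 0.07) and 0.21 under heat shock (SE 0.0865, adjusted p = 0.321), the latter -0.40 with the authors' factors. Without replicate 1 of 1-NA-PP1 at steady state the first was 0.39 and passed (adjusted p = 0.00509), without replicate 2 it was 0.20 (adjusted p = 0.282), and the authors' factors left 0.017. Heat shock gave 0.14 with DMSO (SE 0.0856, edgeR quasi-likelihood adjusted p = 0.196) and 0.05 with 1-NA-PP1 (SE 0.0852, adjusted p = 0.663), and the authors' factors turned them to -0.17 and -0.56.

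A ratio taken within a library does not depend on how libraries are scaled. The ratio of SSN3 to SSN8 in RPKM was 19.9 in each DMSO library at steady state and 21.2 to 21.4 with 1-NA-PP1, without overlap. At 37 °C the ratio was 15.7 to 16.7 with solvent and 16.3 to 17.9 with inhibitor, with overlap, and all 4 heat shock values were below all 4 steady state values. These ratios are given as values, and no test was run on them. The smallest p of an exact two-sided permutation test of 2 libraries against 2 is 0.333. SRB8 and SSN2, which encode the module's scaffold proteins, are not analysed here.

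**Figure D4:**
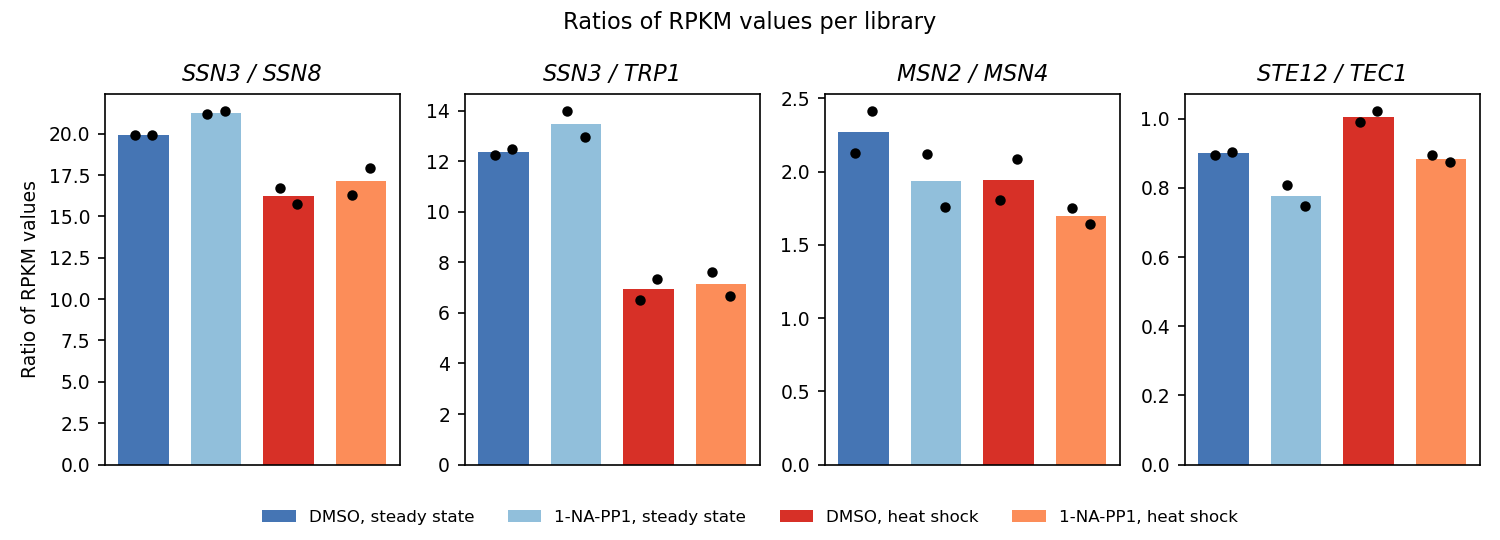
Ratios of RPKM values within each library (bars, group mean of 2 libraries; points, libraries; axes start at 0) for SSN3 over SSN8, SSN3 over the plasmid marker TRP1, MSN2 over MSN4 and STE12 over TEC1. SSN3 over TRP1 drops from between 12.3 and 14.0 at steady state to between 6.52 and 7.63 under heat shock, and STE12 over TEC1 is lower with 1-NA-PP1 at each temperature.

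GCN4 encodes the activator of amino acid synthesis genes, and its output is known to be set mainly by translation of its messenger. It had 351 and 389.8 CPM with DMSO at steady state and 349.7 and 253 with 1-NA-PP1. At 37 °C it had 219 and 261 CPM with solvent and 287 and 261 with inhibitor. The DMSO steady state libraries were the highest, and replicate 2 of 1-NA-PP1 at steady state lay among the heat shock values. Heat shock lowered GCN4 with DMSO, with a log2 change of -0.63 (SE 0.153, edgeR quasi-likelihood adjusted p = 0.00825). That call held with the authors' factors (-0.92) and was lost without replicate 2 of DMSO at steady state (-0.55, adjusted p = 0.053) and without replicate 1 of DMSO under heat shock (-0.57, adjusted p = 0.0553).

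With 1-NA-PP1 the heat shock change of GCN4 was -0.14 (SE 0.152, edgeR quasi-likelihood adjusted p = 0.471), and its direction rested on 1 library. It was 0.12 without replicate 1 of 1-NA-PP1 at steady state and -0.35 without replicate 2 (adjusted p = 0.0244). The inhibitor change was -0.30 at steady state (SE 0.151, edgeR quasi-likelihood adjusted p = 0.206) and 0.19 under heat shock (SE 0.153, adjusted p = 0.602), the latter -0.44 with the authors' factors. The difference between both was 0.49 (SE 0.215, edgeR quasi-likelihood adjusted p = 0.371), the largest in size of the 8 members after TMM scaling, where 0.0204% of all features were called for that difference and 0 members. At an unadjusted p under 0.05, 0 members and 661 features passed for the difference, and DESeq2's test called 24 features and 0 members. Both rested on single libraries of 1-NA-PP1 at steady state, of which replicate 1, at 349.7 CPM, lay close to the lower DMSO library. Without replicate 2 the steady state change was -0.08 (edgeR quasi-likelihood adjusted p = 0.784) and the difference 0.27. Without replicate 1 they were -0.55 (edgeR quasi-likelihood adjusted p = 0.00516) and 0.74 (adjusted p = 0.00993).

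STE12 encodes the activator of mating and filamentation genes, and TEC1 its partner at filamentation genes. TEC1 is a known target of Ste12, so the 250 bases before the TEC1 feature are shown, in sacCer3, read 5′ to 3′ on the gene's strand (chrII:408644-408893, plus strand). This window, and those of the members described further on, were searched on both strands for TGAAACA (the pheromone response element that Ste12 binds), CATTCC and CATTCT (sites of Tec1), TGACTCA (Gcn4), AGGGG (the stress response element of Msn2 and Msn4), GAANNTTC (a core of the heat shock element) and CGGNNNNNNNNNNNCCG (Gal4), and no matches overlapped another motif. Capitals mark every match.
TEC1 upstream: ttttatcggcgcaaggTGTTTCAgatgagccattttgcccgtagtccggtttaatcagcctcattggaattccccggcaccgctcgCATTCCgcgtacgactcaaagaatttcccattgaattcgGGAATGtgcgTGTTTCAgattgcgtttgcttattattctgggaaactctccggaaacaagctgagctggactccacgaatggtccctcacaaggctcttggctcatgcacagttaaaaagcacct

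The TEC1 window holds TGAAACA on the opposite strand at 234 and 115 bases from the feature start, and CATTCC at 164 and 125 bases. TGAAACA is present in 5.82% of the 4928 windows of this length and CATTCC in 8.14%. A match is a string of letters and does not show that a factor binds there.

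STE12 had the smallest inhibitor change of the 8 members at steady state after TMM scaling, whereas with the authors' factors its change was -0.29 and that of MSN2 the smallest. Its libraries had 586 and 587 CPM in solvent, 578 and 569.5 in inhibitor, and under heat shock 487 and 561 with solvent and 631 and 552 with inhibitor. The heat shock libraries of both treatments overlapped, and their replicates lay further apart than the steady state treatments did. Its log2 change with the inhibitor was -0.03 at steady state (95% interval -0.24 to 0.17, edgeR quasi-likelihood adjusted p = 0.823) and 0.17 under heat shock (-0.03 to 0.38, adjusted p = 0.405), the latter -0.44 with the authors' factors. Heat shock gave -0.16 with DMSO (SE 0.0897, edgeR quasi-likelihood adjusted p = 0.149) and 0.04 with 1-NA-PP1 (SE 0.0896, adjusted p = 0.702), the latter -0.58 with the authors' factors and -0.06 without replicate 1 of 1-NA-PP1 under heat shock. Without replicate 2 of DMSO under heat shock the change with DMSO was -0.34 and passed (adjusted p = 0.0208).

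TEC1 had 442 and 438 CPM with solvent and 483 and 514 with inhibitor at steady state. At 37 °C it had 331 and 370.4 CPM with solvent and 475 and 426 with inhibitor. The DMSO heat shock libraries were the lowest, and no group with 1-NA-PP1 overlapped its solvent group. Heat shock lowered TEC1 with DMSO, with a log2 change of -0.33 (SE 0.0822, edgeR quasi-likelihood adjusted p = 0.00952). With the authors' factors it was -0.63 and still called, and without replicate 1 or replicate 2 of DMSO at steady state the adjusted p was 0.0533 and 0.0502 (-0.32 and -0.33). With 1-NA-PP1 the heat shock change was -0.15 (SE 0.0819, edgeR quasi-likelihood adjusted p = 0.164).

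The inhibitor change of TEC1 was 0.18 at steady state (SE 0.0815, edgeR quasi-likelihood adjusted p = 0.163) and 0.36 under heat shock (SE 0.0826, adjusted p = 0.0982), and the authors' factors turned them to -0.09 and -0.26. Leaving out replicate 1 or replicate 2 of 1-NA-PP1 at steady state, which are not in that contrast but share its estimate of the spread, gave an adjusted p of 0.0336 and 0.0339 under heat shock. The ratio of STE12 to TEC1 within a library, which no scaling moves, was 0.895 to 0.904 with solvent and 0.746 to 0.807 with inhibitor at steady state. The range at 37 °C was 0.991 to 1.02 with solvent and 0.874 to 0.896 with inhibitor. STE12 was thus lower against TEC1 in each inhibitor library than in each solvent library of the same temperature, a comparison of values on which no test was run.

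MSN2 and MSN4 encode a pair of related zinc finger activators of the general stress response, which enter the nucleus under stress. Their upstream windows are shown, each ending at the feature start: MSN2 chrXIII:346947-347196, minus strand, and MSN4 chrXI:322972-323221, plus strand, in sacCer3 with the same motifs in capitals.
MSN2 upstream: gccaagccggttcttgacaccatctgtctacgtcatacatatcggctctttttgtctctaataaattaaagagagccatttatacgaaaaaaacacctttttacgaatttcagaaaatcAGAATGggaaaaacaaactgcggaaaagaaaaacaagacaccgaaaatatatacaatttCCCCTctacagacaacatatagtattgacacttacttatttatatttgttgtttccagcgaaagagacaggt
MSN4 upstream: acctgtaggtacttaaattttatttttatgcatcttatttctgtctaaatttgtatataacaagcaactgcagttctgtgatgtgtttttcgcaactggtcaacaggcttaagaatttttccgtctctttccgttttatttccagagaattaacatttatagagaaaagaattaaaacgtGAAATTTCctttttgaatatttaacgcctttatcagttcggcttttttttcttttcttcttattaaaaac

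The MSN2 window holds AGGGG on the opposite strand at 72 bases and CATTCT on the opposite strand at 131 bases from the feature start. The MSN4 window holds GAANNTTC at 70 bases. AGGGG is present in 19.6% of all windows, CATTCT in 16.5% and GAANNTTC in 10.9%. The feature starts of the pair lie at unlike distances from the coding sequences. The MSN4 feature starts at 323222 and its coding sequence at 323228. On the minus strand, the MSN2 feature starts at 346946 and its coding sequence at 346517. The motifs of the pair are thus not from like regions. The windows of SSN8 and GCN4 hold 1 GAANNTTC each, at 131 and 78 bases, and those of SSN3 and GAL4 hold none of the motifs searched. The SSN3 window is that of the reference chromosome. The SSN3 gene measured here is on the plasmid, whose sequence was not searched.

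MSN2 had 658 and 653 CPM with solvent and 763 and 800.3 with inhibitor at steady state, and 695 and 764 with solvent and 861 and 850.0 with inhibitor under heat shock. Both inhibitor libraries were above both solvent libraries at each temperature. The log2 change with the inhibitor was 0.25 at steady state (SE 0.0691, edgeR quasi-likelihood adjusted p = 0.0696) and 0.23 under heat shock (SE 0.0694, adjusted p = 0.18), and the authors' factors turned them to -0.01 and -0.40. Without replicate 1 of 1-NA-PP1 at steady state the first was 0.29, and without each library in turn it ranged from 0.20 to 0.29. Heat shock gave 0.15 with DMSO (SE 0.0693, edgeR quasi-likelihood adjusted p = 0.0859), or 0.0094 without replicate 2 of DMSO under heat shock (adjusted p = 0.91), and 0.13 with 1-NA-PP1 (SE 0.0692, adjusted p = 0.146), which the authors' factors turned to -0.15 and -0.50.

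MSN4 had 258 and 226 CPM with solvent and 300.3 and 380.1 with inhibitor at steady state. At 37 °C it had 321 and 305 CPM with solvent and 409.9 and 432 with inhibitor. The DMSO steady state libraries were the lowest and the 1-NA-PP1 heat shock libraries the highest. After TMM scaling its inhibitor changes were the largest of the set: 0.49 at steady state (SE 0.115, edgeR quasi-likelihood adjusted p = 0.0679) and 0.43 under heat shock (SE 0.116, adjusted p = 0.15). The authors' factors gave 0.19 and -0.19. Without replicate 1 of 1-NA-PP1 at steady state the first was 0.65 (adjusted p = 0.000618) and without replicate 2 it was 0.31 (adjusted p = 0.145). Without replicate 1 or replicate 2 of that group the change under heat shock, still 0.43, had an adjusted p of 0.0194.

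MSN4 rose with heat shock with DMSO, with a log2 change of 0.37 (SE 0.116, edgeR quasi-likelihood adjusted p = 0.0227), and had 0.06 with the authors' factors. That call was lost without replicate 2 of DMSO at steady state (0.28), replicate 1 (0.28) or 2 (0.34) of DMSO under heat shock, and replicate 1 or 2 of 1-NA-PP1 under heat shock (0.31 each). With 1-NA-PP1 the heat shock change was 0.31 (SE 0.115, edgeR quasi-likelihood adjusted p = 0.0515), -0.30 with the authors' factors, and 0.15 and 0.49 without replicate 1 and 2 of 1-NA-PP1 at steady state, the latter called (adjusted p = 0.00212). It was also called with DESeq2's size factors in edgeR (adjusted p = 0.037), with no filter on low counts (0.0498) and by DESeq2's test (0.0211). The ratio of MSN2 to MSN4 within a library was 2.13 to 2.41 with solvent and 1.76 to 2.12 with inhibitor at steady state. It was 1.80 to 2.09 and 1.64 to 1.75 under heat shock. The inhibitor libraries were below the solvent libraries at each temperature, by little at steady state.

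GAL4 encodes the activator of galactose genes and was the least abundant member. It had 35.2 and 32.8 CPM with solvent and 39.7 and 38.5 with inhibitor at steady state, and 43.5 and 42.3 with solvent and 56.7 and 53.0 with inhibitor under heat shock. The groups followed each other in that order with no overlap. GAL4 rose with heat shock by 0.33 on the log2 scale with DMSO (SE 0.0868, edgeR quasi-likelihood adjusted p = 0.0109) and by 0.49 with 1-NA-PP1 (SE 0.0858, adjusted p = 0.00196), and the authors' factors gave 0.02 and -0.14. The call with 1-NA-PP1 held without each library in turn, and that with DMSO was lost without replicate 2 of DMSO at steady state (0.28) or replicate 1 (0.25) or 2 (0.28) of DMSO under heat shock. The inhibitor change was 0.20 at steady state (SE 0.0842, edgeR quasi-likelihood adjusted p = 0.141) and 0.35 under heat shock (SE 0.0883, adjusted p = 0.12), and the authors' factors turned them to -0.05 and -0.25.

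Genes downstream of these factors were counted from lists of known targets, chosen with earlier results of these data known. Their heat shock counts stand beside 29.6% of all features called higher and 28.9% lower with DMSO, and 25.3% higher and 28.1% lower with 1-NA-PP1. Their inhibitor counts at steady state stand beside 0% of all features called and 59.8% positive. With the inhibitor under heat shock, 0.204% of all features were called higher and 0.122% lower, and 50.1% were positive. Members of a list share a cell population, and in bulk RNA a change in the share of cells making a transcript cannot be told apart from a change per cell. Among 41 tested Gcn4 targets of amino acid synthesis, 0 were called with the inhibitor at steady state, 39 had a negative log2 change, and the median was -0.35, where all features had 0.05. Those with the smallest unadjusted p were CPA1 (-0.56) and ARO2 (-0.34), of arginine and aromatic amino acid synthesis. Each had an edgeR quasi-likelihood adjusted p of 0.0679, the smallest of all features, a value that SSN3 and MSN4 share. Under heat shock 36 were negative with a median of -0.24, and 1 fell: ARG4, an arginine synthesis gene, at -0.76 (SE 0.115, edgeR quasi-likelihood adjusted p = 0.0447). The ARG4 call held without either 1-NA-PP1 steady state library and was lost without each of the other 6 libraries in turn (-0.67 to -0.84). With heat shock the list split in both directions, 9 higher and 9 lower with DMSO and 12 higher and 8 lower with 1-NA-PP1, and with the authors' factors 2 higher and 17 lower, and 0 higher and 1 lower. SNZ1, of vitamin B6 synthesis, rose by 1.95 with DMSO (edgeR quasi-likelihood adjusted p = 1.55e-06) and BAT1, a branched-chain aminotransferase gene, fell by 1.32 (adjusted p = 5.48e-05).

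The 26 tested general stress genes of Msn2 and Msn4 had a median inhibitor change of 0.59 at steady state, with 24 positive and 0 called. Over all features the median was 0.05, with 59.8% positive and 0% called. With the authors' factors the median of the stress genes was 0.30, with 19 positive. The smallest unadjusted p belonged to RTN2 (1.17) and XBP1 (0.79), a repressor gene. Each had the same shared edgeR quasi-likelihood adjusted p of 0.0679, the smallest of all features. Under heat shock the median inhibitor change was -0.05, with 10 positive and 0 called, and 1 positive with the authors' factors. With heat shock 20 of 26 rose with DMSO (median 1.21) and 16 of 26 with 1-NA-PP1 (median 0.65), and with the authors' factors 18 and 3. HSP26, a small heat shock protein gene, rose by 3.67 on the log2 scale with DMSO (SE 0.294, edgeR quasi-likelihood adjusted p = 3.19e-05) and by 2.85 with 1-NA-PP1 (SE 0.282, adjusted p = 0.000106). The difference between both heat shock changes was negative for 24 of 26 genes with a median of -0.52, and 0 were called. Over all features the median was -0.04, 43.3% were positive and 0.0204% were called.

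The 10 tested pheromone response genes of Ste12 had 0 calls with the inhibitor at either temperature, with medians of 0.04 and 0.13, and -0.23 and -0.48 with the authors' factors. With heat shock 2 rose and 5 fell with DMSO, and 2 rose and 4 fell with 1-NA-PP1, and with the authors' factors 2 rose and 6 fell, and 0 rose and 1 fell. AGA1, an agglutinin gene, rose by 0.92 with DMSO (SE 0.123, edgeR quasi-likelihood adjusted p = 0.000417) and by 1.33 with 1-NA-PP1 (SE 0.124, adjusted p = 8.05e-05), and CIK1, of nuclear fusion, fell by 0.92 and by 1.09. Of 3 tested filamentation genes of Ste12 and Tec1, 1 rose with the inhibitor under heat shock, where 0.204% of all features were called higher. This was CLN1, a G1 cyclin gene, at 0.56 (SE 0.0734, edgeR quasi-likelihood adjusted p = 0.0447). It had -0.06 with the authors' factors, and the call was lost without each of the libraries in turn other than both 1-NA-PP1 steady state libraries (0.52 to 0.62). With heat shock 1 of the 3 rose and 1 fell in each treatment. With the authors' factors 1 rose and 1 fell with DMSO, and 0 rose and 1 fell with 1-NA-PP1. CLN1 fell by 1.34 with DMSO and by 1.11 with 1-NA-PP1. PGU1 rose by 1.53 with DMSO and by 1.34 with 1-NA-PP1. Without each library in turn the PGU1 changes were 0.80 to 1.98 and 1.01 to 1.75. Among 11 tested regulators of filamentous growth 0 were called with the inhibitor, and with heat shock 4 rose and 1 fell with DMSO and 4 rose with 1-NA-PP1, led by MGA1 (1.17 and 0.87) and the kinase gene STE11 (0.64 with DMSO). With the authors' factors those counts were 1 and 1 with DMSO and 0 with 1-NA-PP1.

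The 10 tested Gal4 targets had 0 calls with the inhibitor, with medians of 0.21 at steady state and 0.07 under heat shock, and -0.07 and -0.54 with the authors' factors. With heat shock 3 rose and 1 fell with DMSO, and 2 rose and 1 fell with 1-NA-PP1. With the authors' factors 3 rose and 2 fell with DMSO, and 0 rose and 1 fell with 1-NA-PP1. With DMSO after TMM scaling, MTH1, a regulator of glucose transporter genes, fell by 2.48 on the log2 scale (SE 0.0998, edgeR quasi-likelihood adjusted p = 1.55e-06). GCY1 rose by 1.63 (SE 0.130, edgeR quasi-likelihood adjusted p = 3.12e-05) and GAL3, the galactose sensor gene, rose by 0.93 (SE 0.114, adjusted p = 0.000272). The third gene that rose, GAL7, was at 2.28 CPM at steady state and lost its call without replicate 1 or 2 of DMSO at steady state or replicate 1 of DMSO under heat shock (lowest change 0.50). The 9 tested targets of Cat8 and Sip4, genes of gluconeogenesis, had a median inhibitor change of 0.33 at steady state and 0.31 under heat shock with 0 calls. With the authors' factors these medians were 0.003 and -0.29. With heat shock 5 rose and 2 fell in each treatment, among them SFC1 (2.68 with DMSO and 2.39 with 1-NA-PP1) and ACS1 (1.77 and 1.64), and with the authors' factors 5 rose and 3 fell with DMSO and 1 rose and 1 fell with 1-NA-PP1.

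**Figure D5:**
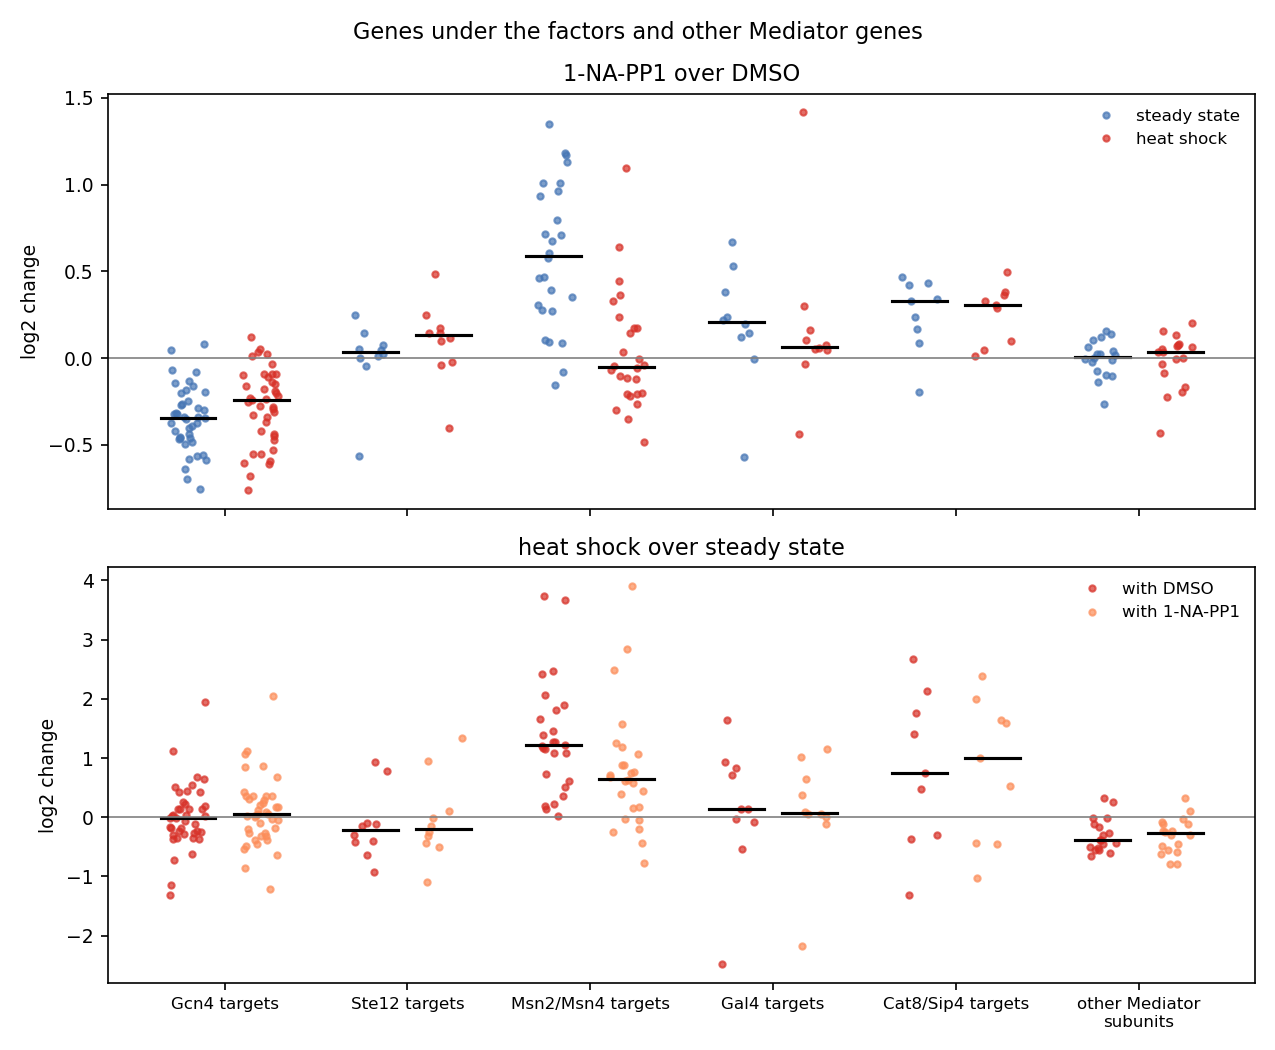
Log2 changes of the tested genes of 6 lists (points, genes; bars, medians) with 1-NA-PP1 over DMSO (upper panel) and with heat shock over steady state (lower panel), after TMM scaling. The median of the Gcn4 targets is -0.35 and that of the Msn2 and Msn4 genes 0.59 with the inhibitor at steady state, -0.57 and 0.30 with the authors' factors, and the Msn2 and Msn4 genes have medians of 1.21 and 0.65 with heat shock.

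Regulators that act on these factors, such as the protein kinase A, Snf1 and Gcn2 kinases and the nuclear exporter Msn5, gave 18 tested genes. None was called with the inhibitor, at medians of 0.10 and 0.02, and -0.16 and -0.60 with the authors' factors. With heat shock 11 rose and 1 fell with DMSO and 7 rose and 2 fell with 1-NA-PP1, and with the authors' factors 0 rose and 1 fell, and none. After TMM scaling, 29.6% of all features were called higher and 28.9% lower with DMSO, and 25.3% and 28.1% with 1-NA-PP1. MSN5, which exports Msn2 and other factors, rose by 0.60 with DMSO (SE 0.0699, edgeR quasi-likelihood adjusted p = 0.000221) and by 0.45 with 1-NA-PP1 (SE 0.0698, adjusted p = 0.00108), the latter -0.18 with the authors' factors.

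The other Mediator subunits show how SSN3 and SSN8 compare with the complex they join. Among 18 tested subunit genes, 0 were called with the inhibitor at either temperature, 9 were positive at steady state and 11 under heat shock, and the medians were 0.01 and 0.04, with 0 positive and medians of -0.25 and -0.59 with the authors' factors. SSN3 and SSN8 had 0.39 and 0.30 at steady state after TMM scaling, above the highest of the 18, SIN4 at 0.15. With heat shock 2 rose and 10 fell with DMSO (median -0.38), and 1 rose and 10 fell with 1-NA-PP1 (median -0.27), and with the authors' factors 14 fell with DMSO and none with 1-NA-PP1. Over all features after TMM scaling, 29.6% were called higher and 28.9% lower with DMSO, and 25.3% and 28.1% with 1-NA-PP1. SOH1 fell by 0.65 (SE 0.116, edgeR quasi-likelihood adjusted p = 0.00179) and by 0.79 (SE 0.116, adjusted p = 0.000806), and SRB6 by 0.60 and 0.79. SSN8, with 0.14 and 0.05, and -0.17 and -0.56 with the authors' factors, did not pass the test in either.

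Genes whose pattern over the 8 libraries was most like each member were taken by Pearson's r of log2 CPM, among features of a mean log2 CPM of at least 3. The libraries fall into a deep steady state and a shallow heat shock set, which all genes share, so r is a description. SSN3 was most like TDP1 (r = 0.981) and SDS22 (0.976), and SSN8 was most like TDH2 (0.987) and NTG2 (0.969). GCN4 was most like SHQ1 (0.976) and YML096W (0.970), and STE12 like ECT1 (0.974) and ERT1 (0.973). TEC1 was most like CET1 (0.987) and MSA1 (0.982). MSN2 was most like YOR343C (0.984) and PET111 (0.978), MSN4 like GIS1 (0.985) and GAT2 (0.983), and GAL4 like HAL9 (0.979) and TPO2 (0.979). No member was among the closest pair of another.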

How the data were processed

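Newly made RNA was counted in 8 libraries, 2 in each of 4 groups set by the sample titles. The authors deposited raw counts (whole reads per open reading frame feature of sacCer3), a signal of normalised counts (raw counts over a factor for each library) and, for the heat shock comparisons, tables with a log2 fold change and an adjusted p-value, per the file headers. The submitters' processing notes name the trimmer cutadapt 1.9.1, the aligner STAR 2.5.2b, and SAMtools, HTSeq and DESeq2, without order or settings. The strand setting and the origin of the authors' factors are not given in the sources used here. Other deposited files hold transcript coordinates.

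The deposited counts entered edgeR 4.0.16 under R 4.3.3 (TMM, filterByExpr leaving 4901 of 4928 features, a quasi-likelihood model of the 4 groups over all 8 libraries, two-sided tests, Benjamini-Hochberg adjustment over all features tested, threshold 0.05). RPKM are TMM-scaled CPM per kilobase of feature. Standard errors are the log2 change over the root of the F statistic. Alternatives were DESeq2 1.42.0 (size factors, and its own test), the authors' factors, no filter, fits of the 2 groups compared, a replicate block, and leaving out each library. On simulated data for 1-NA-PP1 against DMSO at steady state over 4901 features, 61% of 100 features changed by 0.5 on the log2 scale and 97% of 100 changed by 1 were called. The simulation gave every unchanged feature the same mean share in all libraries. It had no heat shock change and no deviation shared by the features of a library. These percentages are therefore not the power of the test in the real libraries. Total counts of 14680275 to 65134744 per library set the counting precision.

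Sequences were read from the R64 reference of sacCer3 by a script, and 4840 features overlapped the reference gene of their systematic name on its strand. Named genes were all members found, TRP1 and the strain and mating type checks, up to 4 called genes per list and comparison with the largest change (or up to 2 with the smallest p where none was called), and the 2 features most like each member. The members and the lists were chosen with earlier results of these data known. PHD1 and SIP4 are not analysed here. The upstream sequence of STE12 is not reported here.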

Additional observations from a re-analysis of the deposited data

Results flagged for a closer look

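GCN4 had inhibitor changes of opposite direction at the 2 temperatures. Both 1-NA-PP1 libraries lay below the DMSO mean at steady state, replicate 1 by little, and both lay above it under heat shock, and the difference between the changes was 0.49 on the log2 scale (edgeR quasi-likelihood test, adjusted p = 0.371). It ranged from 0.27 to 0.74 without each library in turn. The steady state change was -0.08 without replicate 2 of 1-NA-PP1 at steady state. The difference passed the test without replicate 1 of 1-NA-PP1 at steady state, where its adjusted p was 0.00993.

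STE12 showed the same opposite directions, with a difference of 0.21 (edgeR quasi-likelihood test, adjusted p = 0.466) and a range of 0.16 to 0.38 without each library in turn, none of which passed the test. Under heat shock the authors' factors place the inhibitor change of both genes below 0, at -0.44 each.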

How the results depend on the processing

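The count of members called depended on the test and on single libraries. For the inhibitor in growing cells it was 0, 4 by DESeq2's test (986 features), and 0 to 5 without each library in turn (1714 features without the first 1-NA-PP1 library of that group). At 37 °C it was 0, 4 by DESeq2's test, 1 with the 2 groups compared alone (MSN4), and 0 to 2 without each library. Heat shock with DMSO gave 4 and 0 to 4 without each library: 0 without replicate 2 of DMSO at steady state and 1 without replicate 1 of DMSO under heat shock. Heat shock with 1-NA-PP1 gave 2, 0 with the authors' factors, 1 with the 2 groups compared alone, 1 with the replicate block, which lost SSN3 (adjusted p = 0.0572), and 1 to 3 without each library. DESeq2's size factors in edgeR gave 2 but with MSN4 in place of SSN3, and both no filter and DESeq2's test gave 3, with MSN4 added. The difference of the heat shock changes gave 0, and 0 to 1 without each library. The cause of these moves was not tested, other than fewer libraries in a fit.

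Over all features, the inhibitor under heat shock gave 16 calls, 227 by DESeq2's test, 76 with the 2 groups alone, 4 with the replicate block, 0 with the authors' factors and 0 to 237 without each library. The interaction gave 1, 24 by DESeq2's test and 0 to 851.

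With the authors' factors these changes turned negative: TEC1 (-0.0881), MSN2 (-0.0117) and GAL4 (-0.052) with the inhibitor at steady state, and SSN3 (-0.33), SSN8 (-0.40), GCN4 (-0.44), STE12 (-0.44), TEC1 (-0.26), MSN2 (-0.40), MSN4 (-0.19) and GAL4 (-0.25) under heat shock. So did SSN8 (-0.17) and MSN2 (-0.15) for heat shock with DMSO, and SSN8 (-0.56), STE12 (-0.58), MSN2 (-0.50), MSN4 (-0.30) and GAL4 (-0.14) with 1-NA-PP1. A factor per library moves all features of that library by the same amount. In the inhibitor comparisons the authors' factors also differed between replicates. Replicate 1 of 1-NA-PP1 at steady state had 0.946 and replicate 2 had 1.46, for total counts of 65134744 and 61566972. Their solvent counterparts lay closer, at 1 and 0.91. Heat-shocked replicates had factors of 1.10 against 1.57 (inhibitor) and 1 against 0.62 (solvent). What this spread does to calls and directions was not tested. No fit with the authors' factors spans all 8 libraries, so none was run for the interaction. Without 1 library, heat shock with 1-NA-PP1 ranged from -0.0468 to 0.15 for SSN8, -0.35 to 0.12 for GCN4 and -0.064 to 0.13 for STE12. The interaction ranged from -0.21 to 0.0107 for SSN3, -0.19 to 0.0196 for SSN8, -0.0583 to 0.11 for MSN2 (0.0353 with no filter) and -0.23 to 0.11 for MSN4.

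Replicate numbers were not shown to pair libraries: deviations of same-numbered libraries from their group means correlated at -0.31, 0.00088, 0.026 and 0.26 over features in the 4 comparisons of groups. The replicate block changed no other count of members called. In the steady state groups alone, pairing by number and the crossed pairing, added after seeing the data, each called 0 members and 0 features. Depth sets the counting error of GAL4, the member with the fewest counts, at 577 in its shallowest library.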
